A study of Rattus norvegicus with 47 samples.

Results

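Fos, Jun, Junb, Crem, Myc, Dusp1 and Dusp6 are genes that brain cells switch on within a short time of strong stimulation. They were followed here in rat cortex and hippocampus at times that the labels count from injury. Every probe set to which the platform annotation gave 1 of these 7 symbols was taken, giving 20 of the 8799 probe sets on the array for 7 of 4737 genes, and all 20 passed the filter on dim signals. Fos had 3 probe sets, Jun 4, Junb 2, Crem 4, Myc 2, Dusp1 3 and Dusp6 2. Total RNA was measured on 47 oligonucleotide arrays in 6 groups. These were ipsilateral hippocampus at 4 h after injury (7 arrays), contralateral hippocampus at 4 h (9 arrays), ipsilateral cortex at 24 h (8 arrays), contralateral cortex at 24 h (8 arrays), ipsilateral cortex at 4 h (7 arrays) and contralateral cortex at 4 h (8 arrays). Hippocampus was read from the abbreviation HC in the labels. The labels give the treatment of every sample only as wait, give no strain, age or kind of injury, do not say whether any sample is from a sham or uninjured animal, and do not tie arrays to animals, so p-values measure the spread between arrays.

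Fos and the Jun proteins pair into AP-1, a dimeric transcription factor whose genes are induced by calcium entry and by the MAP kinase cascade without new protein synthesis. Crem encodes activators and repressors that bind the cAMP response element (CRE), and an internal promoter of the gene gives the short inducible repressor ICER. Myc is a growth-linked transcription factor that binds E-boxes together with Max. Dusp1 and Dusp6 are phosphatases that switch MAP kinases off: Dusp1 is a nuclear enzyme with stress-activated kinases among its substrates, and Dusp6 is a cytoplasmic enzyme selective for ERK. In brain tissue these genes serve as markers of recent neuronal activity and of injury.

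Promoter windows, each spanning 250 bases before and 50 bases after a transcript start, were taken from RefSeq on the rat build GRCr8 for the 4 members that had an entry (Junb, Crem, Dusp1 and Dusp6), 6 windows in all because Crem had 3. Windows holding a full CRE are printed here because both genes, Dusp1 and Crem, had called differences between the hippocampus and the cortex on each side. The Crem calls differed in direction between its probe sets, and the part of the CRE in any difference was not tested. The capitals mark the CRE, TGACGTCA.
Dusp1, chr10:17184603-17184902, plus strand: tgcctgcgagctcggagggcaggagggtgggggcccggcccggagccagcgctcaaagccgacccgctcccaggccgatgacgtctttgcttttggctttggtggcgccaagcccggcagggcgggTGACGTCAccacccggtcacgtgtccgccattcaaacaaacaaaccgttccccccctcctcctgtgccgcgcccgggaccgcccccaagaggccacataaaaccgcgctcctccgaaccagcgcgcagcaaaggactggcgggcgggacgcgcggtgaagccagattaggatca
Crem window 2, chr17:58984547-58984846, plus strand: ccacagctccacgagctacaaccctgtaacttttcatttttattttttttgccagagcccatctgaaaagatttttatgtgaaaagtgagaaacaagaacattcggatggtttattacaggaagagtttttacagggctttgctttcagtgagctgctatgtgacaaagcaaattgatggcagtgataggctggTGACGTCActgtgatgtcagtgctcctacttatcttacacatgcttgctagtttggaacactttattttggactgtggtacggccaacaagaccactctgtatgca
Crem window 3, chr17:58985240-58985539, plus strand: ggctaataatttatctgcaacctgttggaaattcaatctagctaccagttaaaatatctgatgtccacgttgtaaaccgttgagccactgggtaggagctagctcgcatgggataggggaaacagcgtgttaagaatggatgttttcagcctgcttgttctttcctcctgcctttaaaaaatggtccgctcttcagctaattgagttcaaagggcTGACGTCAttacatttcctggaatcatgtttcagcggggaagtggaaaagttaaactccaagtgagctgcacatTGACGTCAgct
The search covered both strands for the CRE, its short form TGACG (which every full CRE also contains), the AP-1 site TGANTCA and the E-box CACGTG. Positions count from the transcript start, negative before it. The Dusp1 CRE began at position -124, followed by an E-box at -107. Crem window 2 held 1 CRE, at -56, and window 3 held 2, at -35 and at 40. The remaining Crem window and the Junb window held the short form without the full CRE, the Dusp6 window held none of the 4 motifs, and the AP-1 site was in 0 of the 6 windows. Among all 33469 rat windows of this length, 1.83% held the CRE, 21.2% the short form, 7.33% the AP-1 site and 6.42% the E-box.

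Signals are intensities on a linear scale as deposited. A floor was set at 185.8 (the 25th percentile over the whole table), and signals below it carry no order among themselves. Arrays of 1 group correlated with each other at r between 0.944 and 0.985 across probe sets. Of 7 measured genes listed as hippocampus-enriched, 5 rose and 0 fell in ipsilateral hippocampus against cortex, and 4 rose and 1 fell on the contralateral side, while of 7 cortex-enriched genes 4 fell and 1 rose, and 5 fell and 1 rose. One contralateral hippocampus array, number 23, breaks the run of sample numbers of its side and had the highest low end of signal, with a 10th percentile of 98.9. The count of hippocampal side calls is also given without it. Differences below are log2 differences from 1 limma model over all arrays, adjusted over 7503 tested probe sets, and called at an adjusted p under 0.05. In bulk tissue, fewer cells of a type and less RNA per cell cannot be told apart.

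Most member calls lay between regions, where Fos and Dusp1 fell in hippocampus on all their probe sets. In contralateral hippocampus against contralateral cortex at 4 h, 7 of the 20 member probe sets fell and 1 rose, where 33.7% of all tested probe sets were called (22.3% higher and 11.4% lower). On the ipsilateral side 9 fell and 4 rose, where 27.5% of all were called (16.7% higher and 10.8% lower). The median over the 20 probe sets was -0.15 on the contralateral side and -0.23 on the ipsilateral side, beside 0.11 and 0.01 over all tested probe sets. Under quantile normalization the contralateral median of all was 0.01 and the share of higher calls was 49.3%, against 66.2% as scaled by the authors, so contralateral rises of this size are relative to that shift.

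Between the sides of the hippocampus all member calls were rises, whereas falls outnumbered rises among all tested probe sets. In ipsilateral against contralateral hippocampus 5 probe sets of 5 different genes rose and 0 fell, where 16.1% of all tested probe sets were called (5.32% higher and 10.8% lower, a share of higher calls of 33.1% as scaled and 46.2% under quantile normalization). With each array's 10th percentile of signal as covariate 0 of these 5 members were called, and 5 of all 7503 probe sets, against 1207 without it. In cortex 0 of the 20 passed limma's test at 24 h or at 4 h. At 24 h, 0.107% of all probe sets were called (0.0933% higher and 0.0133% lower) and 0 members had an unadjusted p under 0.05. At 4 h the background was 0%, with 558 probe sets at an unadjusted p under 0.05, and 4 member probe sets were among those. The cortical side difference at 24 h minus that at 4 h gave 0 calls among members and 0% of all in limma's test, with 3 members and 421 probe sets at an unadjusted p under 0.05. The hippocampal side difference exceeded the cortical one for 1 member probe set, where 4.18% of all were called (1.08% higher and 3.11% lower).

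With time after injury, ipsilateral cortex at 24 h against 4 h had 4 rises and 1 fall among the 20, where 19.3% of all tested probe sets were called (11.4% higher and 7.92% lower). Contralateral cortex had 3 rises and 1 fall, where 21.5% were called (13.2% higher and 8.25% lower, a share of higher calls of 61.6% as scaled and 51.1% under quantile normalization). The members' shares lay close to these backgrounds. The medians over the 20 probe sets were 0.18 on the ipsilateral and 0.19 on the contralateral side, beside 0.03 and 0.04 over all. Side, region and time comparisons share groups of arrays, so they are not independent of each other.

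**Figure D1:**
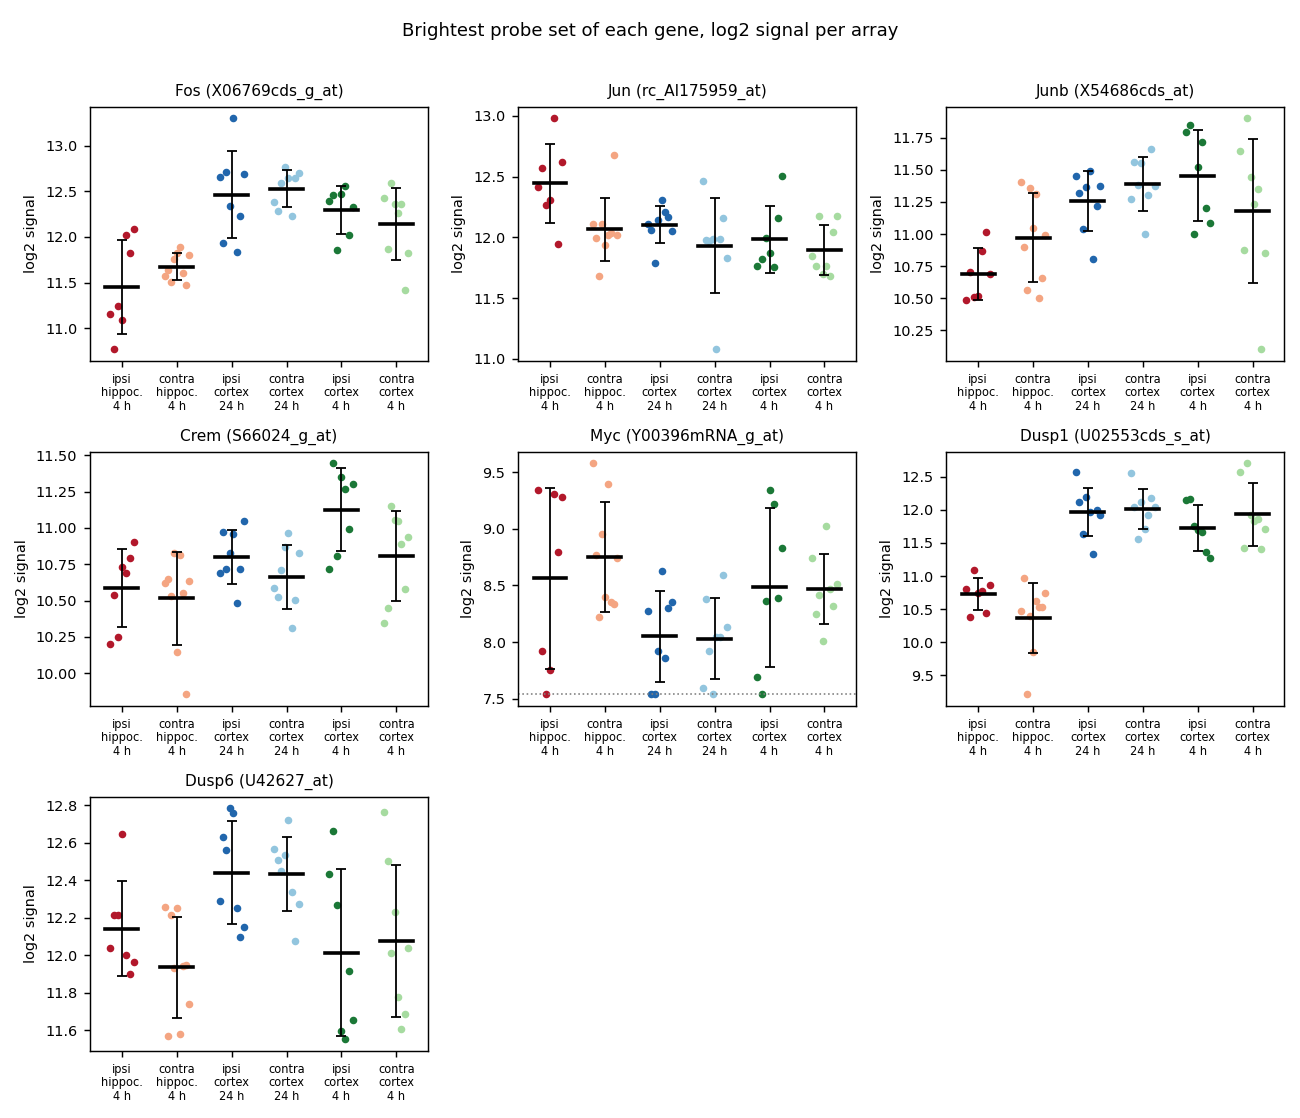
Log2 signal of the brightest probe set of each gene on every array (points), with the group mean and SD (bars), in the 6 groups; the dotted line is the floor. Fos and Dusp1 sat lower in both hippocampal groups than in the 4 cortical groups, with all 16 hippocampal Dusp1 arrays below all 31 cortical arrays.

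Fos, the AP-1 partner that cannot dimerize with itself, was lower in hippocampus. Its brightest probe set, X06769cds_g_at, had lowest, median and highest signals of 2852, 3180.1 and 3801 in contralateral hippocampus, against 2744, 5095 and 6178 in contralateral cortex at 4 h. All 9 hippocampal arrays lay below the cortical median, and the groups overlapped. The log2 difference was -0.46 (SE 0.16, limma adjusted p = 0.0241), and the call was lost without array 9 or without array 11 (limma adjusted p of 0.0529 to 0.0636). On the ipsilateral side the same probe set had 1742, 2431 and 4359.8 in hippocampus, against 3703, 5375 and 6021 in cortex, with 5 of 7 hippocampal arrays below every cortical array. That difference was -0.84 (SE 0.18, limma adjusted p = 0.000299), and it kept its call without any single array. The other Fos probe sets fell too: X03347cds_g_at by 1.05 (contralateral) and 0.71 (ipsilateral), and X06769cds_at by 1.23 and 0.77 on the log2 scale. The ipsilateral calls of these 2 probe sets were lost when 1 array was left out (arrays 1, 3, 17, 18 or 20 for both, and array 5 for X06769cds_at), at limma adjusted p of 0.0508 to 0.0824. Both were also lost with the 10th percentile of signal as covariate, at -0.55 (limma adjusted p = 0.105) and -0.64 (0.0966). X03347cds_g_at lost its ipsilateral call with the compared groups alone as well (limma adjusted p = 0.0662). In order of the mean log2 signal of X06769cds_g_at, the 4 cortical groups (12.53 ± 0.20 at the top, contralateral at 24 h, n = 8) differed from their neighbours by less than 1 SD, and a gap of 1.18 SD separated them from contralateral hippocampus.

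Between sides, 1 of 3 Fos probe sets rose in ipsilateral hippocampus. X06769cds_at had 395, 680.4 and 1177 in ipsilateral hippocampus, against 146, 460.5 and 659 in contralateral hippocampus. Of 7 ipsilateral arrays 4 lay above every contralateral array, and 1 contralateral array, number 25, was under the floor. The rise was 0.74 (SE 0.25, limma adjusted p = 0.0376). The other 2 probe sets did not pass, at 0.44 (interval -0.01 to 0.89) for X03347cds_g_at and -0.22 (-0.56 to 0.12) for X06769cds_g_at. Leaving out array 19, 21, 22, 24, 25 or 27 ended the call (limma adjusted p of 0.0587 to 0.106), as did 3 of the 7 alternatives. In cortex the side difference of X06769cds_g_at was -0.07 at 24 h (95% interval -0.41 to 0.27) and 0.16 at 4 h (-0.19 to 0.51). Ipsilateral cortex at 24 h had 3660.0, 5823 and 10086 on this probe set, where array 37 was the highest and array 38 the lowest. The 24 h minus 4 h differences of the 3 probe sets were between 0.16 and 0.47 on both sides, and 0 of the 6 passed the test. With the 10th percentile of signal as covariate, X06769cds_g_at was called in contralateral cortex (0.46, limma adjusted p = 0.0246, the alternatives running up to 0.189).

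Jun, the AP-1 subunit that can pair with itself or with Fos, was higher in ipsilateral hippocampus on 3 of its 4 probe sets and in contralateral hippocampus on 1. Its brightest probe set, rc_AI175959_at, had 3936, 5457 and 8084 in ipsilateral hippocampus, against 3465, 3743 and 5824 in ipsilateral cortex at 4 h. Every hippocampal array lay above the cortical median and 3 of 7 above every cortical array. The rise was 0.46 (SE 0.14, limma adjusted p = 0.0126), lost without array 21 (limma adjusted p = 0.0506) and with the 10th percentile of signal as covariate (0.31, 0.11, the alternatives beginning at 0.0117). rc_AA944014_at and X17163cds_s_at also rose, by 0.59 and 0.36, with calls lost without array 4 or 6 for the first (0.0503 to 0.1) and without array 3, 5, 17 or 21 for the second (0.0505 to 0.089). The first also lost its call with the compared groups alone (0.0717). The second lost it there (0.0559), under quantile normalization (0.24, limma adjusted p = 0.186) and with the covariate (0.0834). rc_AA945867_at did not pass the test (0.22, interval -0.07 to 0.52). On the contralateral side rc_AA944014_at rose, with 521, 658 and 799 in hippocampus, against 257, 431 and 742 in cortex. Its 9 hippocampal arrays all exceeded the cortical median, with the difference at 0.59 (SE 0.18, limma adjusted p = 0.00948). Under quantile normalization that difference was 0.34 and not called (limma adjusted p = 0.151, the highest of the 7 alternatives, which began at 0.00697). The brightest rc_AI175959_at differed there by 0.17 (interval -0.09 to 0.43), X17163cds_s_at by 0.16 (-0.07 to 0.39) and rc_AA945867_at by -0.08 (-0.34 to 0.19), and none of these 3 was called.

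Side and time differences of Jun differed between its probe sets. In hippocampus rc_AI175959_at had the ipsilateral signals given above, against 3283, 4163 and 6543 on the contralateral side, where array 31 stood above the rest. Of 7 ipsilateral arrays 6 exceeded the contralateral median. The rise was 0.38 (SE 0.14, limma adjusted p = 0.0472), and leaving out any 1 of arrays 17 to 21, 23 to 30 and 32 ended the call (limma adjusted p of 0.0515 to 0.154), as did 6 of the 7 alternatives. The other 3 Jun probe sets differed by -0.20, 0.26 and 0.12 there. With time, rc_AA945867_at fell in contralateral cortex, with 933, 1308 and 1463 at 24 h, against 945, 1735 and 2110.2 at 4 h. All 8 of the 24 h arrays were below the 4 h median, and the groups overlapped. The change was -0.37 (SE 0.14, limma adjusted p = 0.0468), lost without any 1 of arrays 11 to 16, 42, 44, 45 and 48 (0.0547 to 0.117) and under 2 of the 7 alternatives. In ipsilateral cortex the same probe set changed by -0.25 (interval -0.54 to 0.03). There rc_AA944014_at went the opposite way, at 0.44 (SE 0.19, limma adjusted p = 0.102), not called, and was called with the covariate (0.52, limma adjusted p = 0.0473, the alternatives running up to 0.181) and without array 5 (0.57, 0.0302). The 4 Jun probe sets correlated with each other at r between 0.15 and 0.47 over the 47 arrays, well under the 0.80 to 0.83 among the Fos probe sets.

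Junb, a Jun family member that often restrains c-Jun activity, was lower in hippocampus on the ipsilateral side. X54686cds_at had 1435, 1655 and 2076 in ipsilateral hippocampus, against 2054, 2947 and 3696 in ipsilateral cortex at 4 h. All but 1 hippocampal array lay under the lowest cortical array. The difference was -0.77 (SE 0.18, limma adjusted p = 0.000765), and rc_AA891041_at fell too, at -0.61 (SE 0.16, limma adjusted p = 0.00305). Both kept their calls without any single array. On the contralateral side the differences were -0.20 (interval -0.53 to 0.12) and -0.15 (-0.44 to 0.15) and did not pass. Whether the region difference of Junb changed with side was tested by the same contrast as the side differences: -0.56 for X54686cds_at (limma adjusted p = 0.162) and -0.46 for rc_AA891041_at (limma adjusted p = 0.208), neither of which was called.

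In contralateral cortex Junb was higher at 24 h on 1 of its 2 probe sets. rc_AA891041_at had 2346, 2757 and 3697 at 24 h, against 1374, 1819 and 2505 at 4 h. At 24 h 6 of 8 arrays lay above every 4 h array. The rise was 0.63 (SE 0.15, limma adjusted p = 0.00146) and kept its call under all 7 alternatives and without any single array. Ipsilateral cortex already stood at 2299, 2554 and 4982 at 4 h, and at 1937, 3051 and 3308 at 24 h, with a time difference of 0.00 (interval -0.31 to 0.31). At 4 h all 7 ipsilateral cortical arrays exceeded the contralateral median and 4 exceeded every contralateral array. The side difference was 0.65 (SE 0.16, limma adjusted p = 0.134), at an unadjusted p of 0.000117, and was not called under any of the 7 alternatives (limma adjusted p of 0.0854 to 0.672). X54686cds_at differed there by 0.28 (interval -0.07 to 0.62), and with time by 0.21 (-0.12 to 0.55) in contralateral and -0.20 (-0.54 to 0.15) in ipsilateral cortex, with 0 of these called. The change of the rc_AA891041_at side difference between 24 h and 4 h was -0.63 (SE 0.22, limma adjusted p = 0.737) and was not called.

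**Figure D2:**
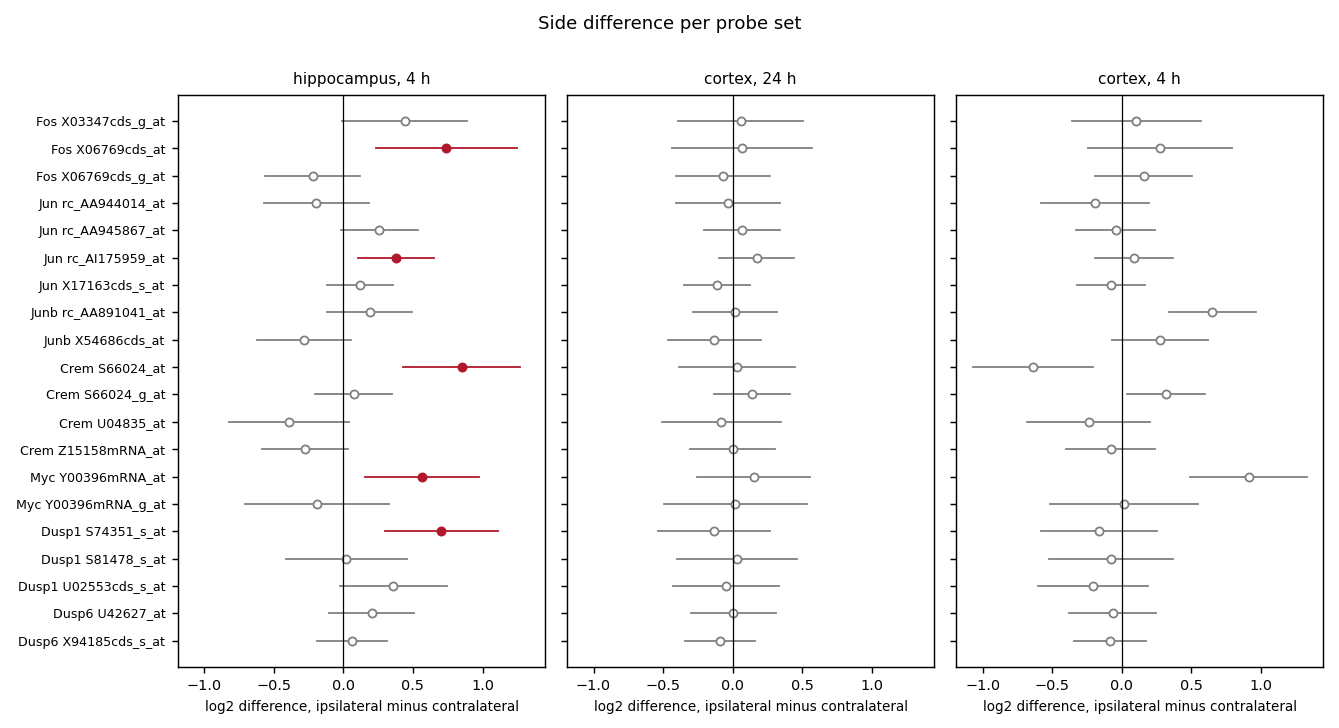
Ipsilateral minus contralateral log2 difference of the 20 probe sets (points) with 95% intervals (lines) in hippocampus at 4 h, cortex at 24 h and cortex at 4 h; filled red marks a limma adjusted p under 0.05. The 5 filled points are all in hippocampus, 1 each for Fos, Jun, Crem, Myc and Dusp1; Myc Y00396mRNA_at and Junb rc_AA891041_at at 0.91 and 0.65 in cortex at 4 h are unfilled.

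Crem gave the largest difference between the 2 side contrasts, on 1 of its 4 probe sets. S66024_at had 221, 355 and 628 in ipsilateral hippocampus, against 42.4, 151 and 347 in contralateral hippocampus. All 7 ipsilateral arrays were above the floor, as were 2 of 9 contralateral arrays, of which array 28 was the highest. The rise was 0.85 (SE 0.21, limma adjusted p = 0.00517), 1.80-fold, and since most contralateral values sat at the floor the fold is smaller than in the unfloored signal. It kept its call without any single array. In cortex at 4 h the order was opposite, with 51.1, 195 and 407 in ipsilateral cortex, against 79.5, 395 and 566 in contralateral cortex. That difference was -0.64 (SE 0.21, limma adjusted p = 0.429) and not called. The hippocampal side difference minus the cortical one was 1.49 (SE 0.30, limma adjusted p = 0.00606), with an interval of 0.89 to 2.09, and was called without any single array. With the 10th percentile of signal as covariate both lost their calls, at 0.76 for the hippocampal rise (limma adjusted p = 0.246) and 1.40 for this contrast (0.0818), and over the 7 alternatives the contrast ran between 1.40 and 2.31.

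The Crem probe sets did not move together. S66024_g_at, the brightest and drawn from the same transcript entry, had 1179.6, 1655 and 1919 in ipsilateral hippocampus, against 925, 1572 and 1819.5 in contralateral hippocampus. Its groups overlapped, at a difference of 0.07 (interval -0.20 to 0.35). In cortex at 4 h it had 1682, 2465 and 2787 in ipsilateral tissue, against 1299.7, 1926 and 2275 in contralateral tissue. Its difference there, 0.32 (SE 0.14, limma adjusted p = 0.623), had the opposite sign to that of S66024_at, and neither was called. U04835_at differed by -0.39 in hippocampus (interval -0.82 to 0.04). Z15158mRNA_at was above the floor on 0 arrays of ipsilateral hippocampus and of either cortex at 24 h, and on 3 of 9, 3 of 7 and 4 of 8 arrays of the contralateral hippocampus and the ipsilateral and contralateral cortex at 4 h. Over the 47 arrays, pairs of Crem probe sets correlated at r between -0.40 and 0.13. Which Crem transcripts each probe set reads is not given in the files.

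By region, S66024_at fell in contralateral hippocampus against contralateral cortex, at -0.87 (SE 0.20, limma adjusted p = 0.000666), with all 9 hippocampal arrays under the cortical median. Since 7 of the 9 were at the floor, its size depends on the floor, and the alternatives ran between -1.43 and -0.84. In ipsilateral hippocampus it rose by 0.62 (SE 0.22, limma adjusted p = 0.0305), a call lost without array 1, 3, 4, 5, 17 or 24 (0.0632 to 0.101) and under 4 of the 7 alternatives (up to 0.0921). S66024_g_at fell in ipsilateral hippocampus, at -0.54 (SE 0.14, limma adjusted p = 0.00377), with all 7 arrays under the cortical median. On the contralateral side it differed by -0.29 (interval -0.56 to -0.03), which was not called as scaled. That difference was called under quantile normalization (-0.48, limma adjusted p = 0.00339) and with the 10th percentile of signal as covariate (-0.35, 0.0291), the alternatives running up to 0.159. It was also called without array 9 or 10 (limma adjusted p of 0.0348 to 0.0476). With time, S66024_at in ipsilateral cortex had 237, 407 and 583 at 24 h, against the 4 h signals given above. All 8 arrays at 24 h exceeded the 4 h median, and the rise was 0.70 (SE 0.21, limma adjusted p = 0.0158). It lost its call with log2(signal + 64) in place of the floor (limma adjusted p = 0.0501), and with the floor at the 10th percentile (0.0711), the alternatives running between 0.0154 and 0.0711. The brightest, S66024_g_at, went the opposite way in the same comparison, at -0.32 (SE 0.14, limma adjusted p = 0.1). It was not called, and was called under quantile normalization (-0.43, limma adjusted p = 0.02, the alternatives running up to 0.221) and without array 1 (-0.39, 0.0494). In contralateral cortex the time difference of S66024_at was 0.03 (interval -0.39 to 0.44).

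**Figure D3:**
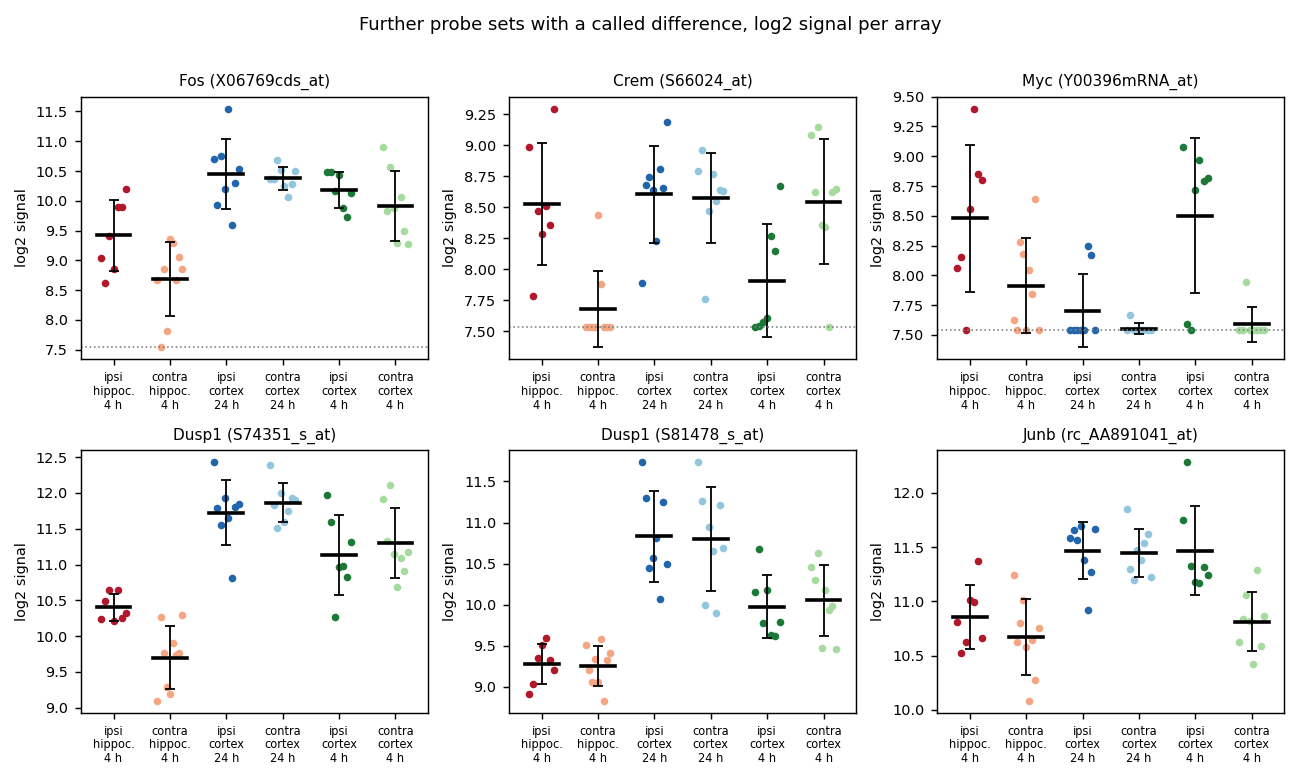
Log2 signal on every array (points), with group mean and SD (bars), for 6 further probe sets that carried a called difference; the dotted line is the floor. Crem S66024_at was at the floor on 7 of 9 contralateral hippocampal arrays, and Myc Y00396mRNA_at was above it on 1 of 8 arrays in each contralateral cortical group.

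Myc fell with time in ipsilateral cortex on the dimmer of its 2 probe sets, which was near the floor. Y00396mRNA_at was above the floor on 6 of 7 ipsilateral and 6 of 9 contralateral hippocampal arrays, on 2 of 8 ipsilateral and 1 of 8 contralateral cortical arrays at 24 h, and on 6 of 7 ipsilateral and 1 of 8 contralateral cortical arrays at 4 h. Its signals in ipsilateral cortex were 28.8, 103 and 303 at 24 h, against 57.7, 443 and 542 at 4 h. All 8 arrays at 24 h were below the 4 h median. The difference was -0.80 (SE 0.21, limma adjusted p = 0.00443), 1.74-fold on the floored scale, and it kept its call under all 7 alternatives and without any single array. Since 6 of 8 arrays at 24 h were at the floor, its size depends on the floor, and the alternatives ran between -1.44 and -0.80. The contralateral time difference was -0.03 (interval -0.44 to 0.37), between groups that were almost wholly at the floor. The side difference at 24 h minus that at 4 h was -0.76 (limma adjusted p = 0.815) and not called. The brighter Y00396mRNA_g_at changed alike on both sides, at -0.43 (interval -0.96 to 0.10) in ipsilateral and -0.44 (-0.95 to 0.08) in contralateral cortex, and neither was called.

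Between sides, Myc rose in ipsilateral hippocampus on this probe set. In hippocampus it had 115, 377 and 676 on the ipsilateral side, against 129, 230.3 and 399 on the contralateral side. Of 7 ipsilateral arrays 3 exceeded every contralateral array, and the rise was 0.57 (SE 0.20, limma adjusted p = 0.048). Leaving out any 1 of 10 arrays ended that call (20 to 25, 28 to 30 and 32, limma adjusted p of 0.0543 to 0.169), as did 5 of the 7 alternatives (up to 0.51). In cortex at 4 h the ipsilateral signals given above stood against 37.9, 114 and 246 on the contralateral side, and 5 of 7 ipsilateral arrays exceeded every contralateral array. That difference was 0.91 (SE 0.21, limma adjusted p = 0.134) and not called as scaled or under any of the 7 alternatives (limma adjusted p of 0.0667 to 0.672). It was called without array 3 (1.06, limma adjusted p = 0.0346) or without array 4 (1.07, 0.025). The brighter probe set of the same entry, Y00396mRNA_g_at, differed by -0.19 in hippocampus and 0.01 in cortex at 4 h, with intervals of -0.70 to 0.33 and -0.52 to 0.55. The 2 Myc probe sets correlated at r = 0.35.

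Dusp1, the nuclear MAP kinase phosphatase, had the largest region differences of the 7 genes. U02553cds_s_at had 593, 1481 and 2004 in contralateral hippocampus, against 2720.0, 3694 and 6671 in contralateral cortex at 4 h. The groups did not overlap, and the difference was -1.56 (SE 0.18, limma adjusted p = 2.51e-09), 2.95-fold lower in hippocampus. On the ipsilateral side it had 1334, 1759 and 2181 in hippocampus, against 2474, 3303 and 4575 in cortex, again without overlap. That difference was -0.995 (SE 0.20, limma adjusted p = 0.000158), 1.99-fold lower. S74351_s_at fell too, at -1.60 (SE 0.19, limma adjusted p = 5.78e-09) without overlap on the contralateral side, and at -0.73 (SE 0.21, limma adjusted p = 0.00805) on the ipsilateral side. S81478_s_at was at -0.80 (SE 0.21, limma adjusted p = 0.00243) on the contralateral side and, without overlap, at -0.70 (SE 0.23, limma adjusted p = 0.0186) on the ipsilateral side. Of these 6 calls, 5 held without any single array, and S81478_s_at on the ipsilateral side was lost without array 3 (-0.58, limma adjusted p = 0.0622). The gap between ipsilateral cortex at 4 h and ipsilateral hippocampus was 2.88 times the larger SD on U02553cds_s_at, and the 4 cortical groups above it lay within 1 SD of their neighbours.

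**Figure D4:**
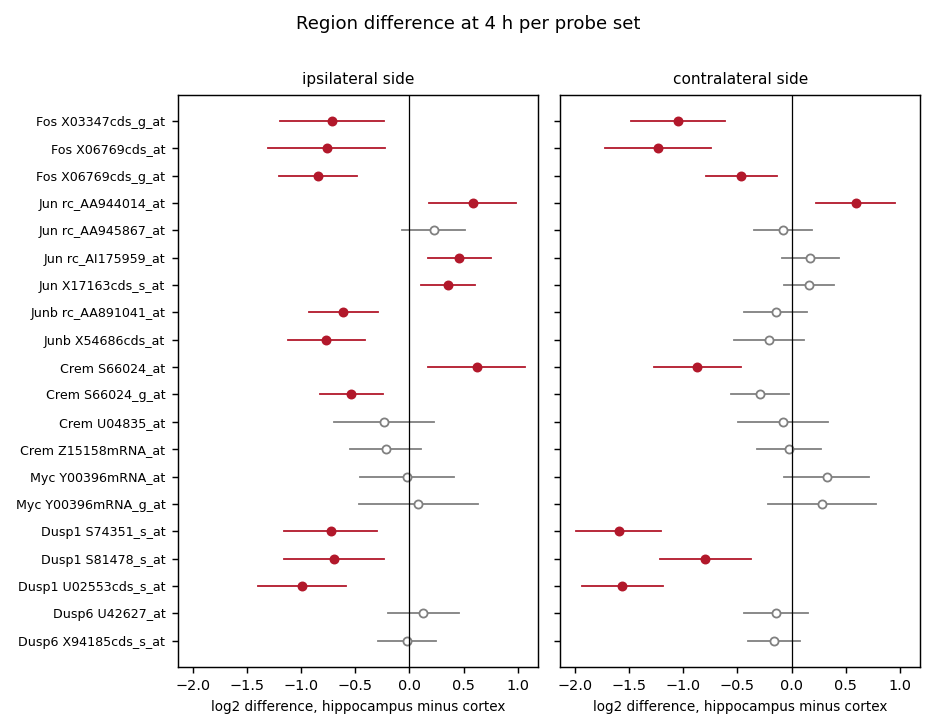
Hippocampus minus cortex log2 difference at 4 h for the 20 probe sets (points) with 95% intervals (lines), on the ipsilateral and the contralateral side; filled red marks a limma adjusted p under 0.05. All 3 Fos and all 3 Dusp1 probe sets are filled and left of 0 in both panels, down to -1.60 for S74351_s_at, and both Dusp6 probe sets are open in both.

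Dusp1 also rose in ipsilateral hippocampus on 1 probe set. S74351_s_at had 1190.4, 1282 and 1601 in ipsilateral hippocampus, against 545, 866 and 1256 in contralateral hippocampus. Every ipsilateral array exceeded the contralateral median and 4 of 7 exceeded every contralateral array, the lowest of which was array 23. The rise was 0.70 (SE 0.20, limma adjusted p = 0.0152), called without any single array, array 23 included, and lost with the 10th percentile of signal as covariate (0.50, limma adjusted p = 0.469). U02553cds_s_at differed by 0.36 (interval -0.02 to 0.74) and S81478_s_at by 0.02 (-0.41 to 0.46), neither called. The hippocampal minus cortical side difference of S74351_s_at was 0.87 (SE 0.29, limma adjusted p = 0.0736), not called, and was called without array 1 or 13 (limma adjusted p of 0.0361 to 0.0392) and under quantile normalization (0.98, limma adjusted p = 0.0494, the alternatives running up to 0.452).

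At 24 h Dusp1 was higher in cortex on both sides on 2 of 3 probe sets. S81478_s_at had 1074, 1656 and 3402 in ipsilateral cortex at 24 h, against 789, 882 and 1634 at 4 h, with 4 of 8 arrays above every 4 h array. The rise was 0.86 (SE 0.22, limma adjusted p = 0.00413). In contralateral cortex it had 954, 1809.8 and 3407 at 24 h, against 707, 1086 and 1589 at 4 h. Of 8 arrays at 24 h 6 lay above every 4 h array and the other 2 below the 4 h median, and the rise was 0.75 (SE 0.21, limma adjusted p = 0.00896). Both calls held under all 7 alternatives and without any single array. S74351_s_at rose by 0.60 (SE 0.21, limma adjusted p = 0.0349) and 0.57 (SE 0.20, limma adjusted p = 0.0356), calls that were lost without any 1 of arrays 4 to 7, 33, 36, 39 and 40 (0.0546 to 0.122) and of arrays 12 to 16, 41, 44, 47 and 48 (0.0527 to 0.089). Quantile normalization also ended both, at 0.51 (limma adjusted p = 0.0905) and 0.46 (0.12), the alternatives running between 0.0307 and 0.12. The ipsilateral call was lost too with the compared groups alone (limma adjusted p = 0.0969) and with the covariate (0.0807). The contralateral call was lost without the filter on dim probe sets (limma adjusted p = 0.0512). U02553cds_s_at, the brightest, changed by 0.24 (interval -0.15 to 0.64) and 0.09 (-0.30 to 0.47) and did not pass. The 3 probe sets correlated at r between 0.81 and 0.90 over the 47 arrays.

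Dusp6, the ERK-selective phosphatase, did not pass the test between regions on either side. U42627_at had 3822, 4215 and 6425 in ipsilateral hippocampus, against 3002, 3873 and 6498 in ipsilateral cortex at 4 h, and array 20 stood above the other hippocampal arrays. The difference was 0.13 (interval -0.20 to 0.45), and on the contralateral side -0.14 (-0.44 to 0.15). In ipsilateral cortex at 24 h it had 4387, 5528 and 7053, all 8 arrays above the 4 h median. The rise over 4 h was 0.43 (SE 0.16, limma adjusted p = 0.0464), and it was lost without any 1 of arrays 5 to 8 and 34 to 37 (0.0735 to 0.129) and under 6 of the 7 alternatives (up to 0.102). In contralateral cortex it had 4321, 5712 and 6750.0 at 24 h, against 3121, 4176 and 6954 at 4 h. Here too all 8 arrays exceeded the 4 h median, but the difference of 0.36 (SE 0.15, limma adjusted p = 0.0888) was not called. It was called without array 9 or 10 (0.0238 to 0.0469). X94185cds_s_at changed by 0.19 and 0.20, with intervals of -0.07 to 0.45 and -0.05 to 0.45.

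**Figure D5:**
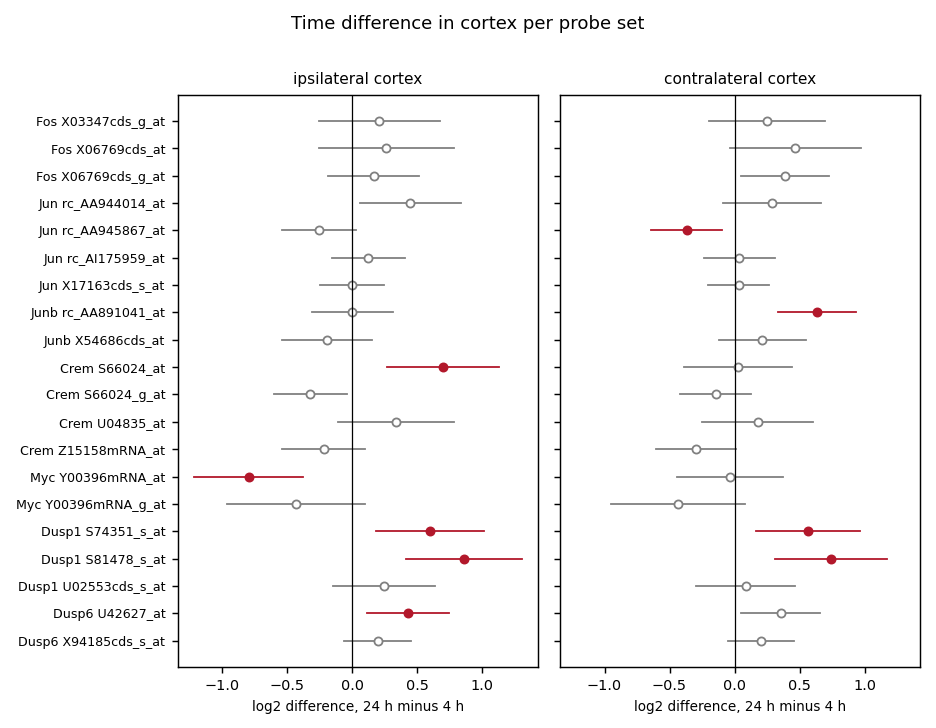
24 h minus 4 h log2 difference in cortex for the 20 probe sets (points) with 95% intervals (lines), ipsilateral and contralateral; filled red marks a limma adjusted p under 0.05. Dusp1 S81478_s_at and S74351_s_at are filled and right of 0 in both panels, Myc Y00396mRNA_at is filled at -0.80 on the ipsilateral side, and Junb rc_AA891041_at is filled at 0.63 on the contralateral side.

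Technical measures moved with some of these comparisons. The 10th percentile of signal averaged 43.98 ± 6.85 in ipsilateral hippocampus (SD, n = 7) and 64.8 ± 16.1 in contralateral hippocampus (SD, n = 9). With it as a covariate, 0 of the 5 hippocampal rises stayed called, at 0.92 for Fos, 0.16 for Jun, 0.76 for Crem, 0.47 for Myc and 0.50 for Dusp1 (limma adjusted p of 0.239, 0.787, 0.246, 0.51 and 0.469), and 5 of all 7503 probe sets were called. The 10th percentile ran from 36.4 to 56.7 in ipsilateral and from 45.8 to 98.9 in contralateral hippocampus. Since these ranges overlapped only in part, side and the low end of signal cannot be fully told apart here. Without array 23, 3 of the 5 rises stayed called. The 3′ to 5′ ratio of the actin control had medians of 1.35 and 1.22 in ipsilateral and contralateral hippocampus, against 1.61 and 1.49 in ipsilateral and contralateral cortex at 4 h. The same ratio for the Gapdh control had medians of 1.09 and 1.07 in ipsilateral and contralateral cortex at 24 h, against 1.22 and 1.20 in ipsilateral and contralateral cortex at 4 h. The part of these ratios in the region and time differences was not tested.

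Cell type markers also varied with region. The summed signal of 11 measured neuron markers of 16 listed ran between 238419 and 273142 in ipsilateral hippocampus, against 288722 to 330840 in ipsilateral cortex at 4 h, and between 240423 and 265266 in contralateral hippocampus, against 298914 to 327060 in contralateral cortex at 4 h. 0 of the 11 were at the floor on all arrays of a group. Of these markers 3 fell and 1 rose on the ipsilateral side and 3 fell on the contralateral side. Of 8 oligodendrocyte markers, 5 rose and 1 fell in ipsilateral hippocampus and 1 rose in contralateral hippocampus. As shares called these were 36.4% and 27.3% of the neuron markers and 75.0% and 12.5% of the oligodendrocyte markers, beside 28.6% and 34.8% of all genes. Of 8 astrocyte markers 2 rose and 2 fell on the ipsilateral side and 2 rose and 1 fell on the contralateral side (50% and 37.5%). The shares on each side were 12.5% for endothelial, 8.33% for microglia and macrophage and 16.7% for blood leukocyte markers. Red blood cell and plasma markers had 20% on the ipsilateral and 60% on the contralateral side. Between the sides of the hippocampus, the 6 measured blood leukocyte markers of 12 listed summed to between 1468 and 3459 on the ipsilateral side, where Cd8a was at the floor on all arrays, against 2789 to 4117 on the contralateral side, where 0 were. Between these sides 1 leukocyte marker (Lck), 1 microglia marker (C1qc) and 2 endothelial markers (Flt1 and Icam2) fell, and 1 neuron marker (Nefl) rose. As shares called these were 16.7%, 8.33%, 25% and 9.09% of their lists, beside 16.3% of all genes. Of 5 red blood cell and plasma markers 1 fell there (20%). Of 12 microglia and macrophage markers, 2 rose in ipsilateral cortex at 24 h against 4 h, where their sum ran between 28392 and 53227, against 27765 to 39936, a share called of 16.7% beside 19.1% of all genes. In contralateral cortex 1 of the 12 fell (8.33%, beside 21.3% of all genes). Shares called with time, ipsilateral then contralateral, were 27.3% and 27.3% for neuron, 25% and 37.5% for astrocyte and 12.5% and 25% for oligodendrocyte markers. They were 16.7% and 0% for blood leukocyte, 0% and 0% for endothelial, and 0% and 20% for red blood cell and plasma markers. The part of these cells in the members' differences was not tested.

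Other genes of the same pathways were counted with 1 probe set per gene. Of 18 measured immediate early partners, such as the Egr and Nr4a factors and the synaptic gene Arc, 9 fell and 3 rose in ipsilateral hippocampus against cortex, and 8 fell and 4 rose on the contralateral side. Over all 4242 genes 28.6% and 34.8% were called, and the medians of the 18 were -0.38 and -0.38, beside 0.01 and 0.12. Arc fell by 1.10 and 0.93 and Egr1 by 0.88 and 1.51 on the log2 scale, while Nr4a3 rose by 1.55 and 1.19. With time, 5 rose and 2 fell in ipsilateral cortex and 6 rose and 1 fell in contralateral cortex, where 19.1% and 21.3% of genes were called. Nr4a3 (0.93 and 0.96) and Egr2 (1.04 and 0.83) led these rises. Between the sides of the hippocampus, where 16.3% of genes were called, Egr1 (0.56) and Klf10 (0.52) rose and Egr4 (-0.79) and Ier3 (-0.47) fell.

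Of 9 measured AP-1 and CREB/ATF family genes beside the members, shares near or below those of all genes passed. With time 1 rose and 1 fell in ipsilateral and 1 rose in contralateral cortex (22.2% and 11.1% called, beside 19.1% and 21.3% of all genes), and by region 1 rose and 1 fell on the ipsilateral and 2 rose and 1 fell on the contralateral side (22.2% and 33.3%, beside 28.6% and 34.8%). Atf3, a stress-induced family member, fell in ipsilateral cortex at 24 h against 4 h by 0.86 (limma adjusted p = 0.00866), and Maf rose there by 0.55 and on the contralateral side by 0.59. Jdp2, a repressor that binds AP-1 sites, fell in hippocampus by 0.52 on the ipsilateral and 0.61 on the contralateral side. Atf2, a CREB-related factor, rose there by 0.53 on the ipsilateral side, Maf and Mafk rose by 0.34 and 0.49 on the contralateral side, and 0 of the 9 passed between sides in hippocampus. Of 9 other phosphatases of MAP kinases, 3 rose in ipsilateral and 5 in contralateral cortex at 24 h and 0 fell, with medians of 0.12 and 0.28 beside 0.02 and 0.04 over all genes and shares called of 33.3% and 55.6% beside 19.1% and 21.3%, among them Ppm1a (0.94 and 0.99) and Ppm1b (0.47 and 0.69). Dusp5, a nuclear ERK phosphatase, rose at 24 h in contralateral cortex by 0.52. It also rose in contralateral hippocampus against cortex by 0.92, where all 3 Dusp1 probe sets fell. By region 2 of these 9 phosphatases rose and 0 fell on each side, a share called of 22.2% beside 28.6% and 34.8% of all genes. Between the sides of the hippocampus Ptprr (0.75) and Ppm1b (0.35) rose, a share called of 22.2% beside 16.3% of all genes.

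Of 22 measured MAP kinase cascade genes, 3 rose and 1 fell in ipsilateral and 5 rose and 1 fell in contralateral cortex with time (18.2% and 27.3% called, beside 19.1% and 21.3% of all genes, medians 0.10 and 0.12), with Mapk9, a JNK gene, at 0.72 and 0.68. Against cortex, 2 rose in ipsilateral hippocampus, and 7 rose and 3 fell in contralateral hippocampus (9.09% and 45.5% called, beside 28.6% and 34.8%). Of 23 measured cAMP pathway genes 7 fell and 1 rose in ipsilateral hippocampus against cortex, and 7 fell and 2 rose on the contralateral side, with medians of -0.24 and -0.14 beside 0.01 and 0.12 over all genes and shares called of 34.8% and 39.1% beside 28.6% and 34.8%. Among them was Camk2g, a calmodulin-dependent kinase subunit, at -0.72 and -1.04. Of 7 Myc network genes, which include its Mxd antagonists, 1 rose in ipsilateral cortex with time (Mxd4, 0.55) and 0 in contralateral cortex. These were shares called of 14.3% and 0%, below the 19.1% and 21.3% of all genes. Of 15 commonly cited Myc targets, 4 rose in ipsilateral and 5 in contralateral cortex with time and 0 fell (26.7% and 33.3% called, beside 19.1% and 21.3% of all genes, medians 0.08 and 0.02). Eif4e, the cap-binding translation factor, was at 0.67 and 0.86, and Tfrc, the transferrin receptor, at 0.80 and 0.94. For the sides of the hippocampus, 0 MAP kinase cascade genes rose and 2 fell (9.09% called), and 0 cAMP pathway genes rose and 3 fell (13%). Of the Myc network genes 0 rose and 1 fell (14.3%), and of the Myc targets 1 rose and 0 fell (6.67%), beside 16.3% of all genes.

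Across the 47 arrays the brightest probe sets of Fos and Junb correlated at r = 0.75, Fos and Dusp1 at 0.70, and Junb and Dusp1 at 0.63, values that include the region differences above. As deviations from the 6 group means the same pairs had r of 0.61, 0.30 and 0.54. Myc and Dusp6 ran opposite, at -0.63 over all arrays and -0.51 within groups. Among tested probe sets of genes outside the 7, the one most like Fos over the 47 arrays was Kcnf1 (0.81), most like Jun Plpp1 (0.69), most like Junb Arc (0.79), most like Crem Cyp27a1 (0.62), most like Myc Il1a (0.64), most like Dusp1 Stx1a (0.85) and most like Dusp6 Chrm3 (0.63). As deviations from group means the most like were Dusp5 for Fos (0.67), Atp1b3 for Jun (0.61), Psmb4 for Junb (0.74), Rin1 for Crem (0.59), Anxa2 for Myc (0.68), Nr4a1 for Dusp1 (0.55) and Egr1 for Dusp6 (0.59). The arrays share a scaling and a group structure, and these correlations are descriptions.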

How the data were processed

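The authors deposited 1 intensity (signal) per probe set and array on a linear scale. How they summarized probes and scaled arrays is not given in the sources used here. Trimmed by 2% at each end, mean signals of 2503 to 2504 were found on all arrays, so no further scaling was applied. RNA was extracted with Trizol, per the labels. Signals under the 25th percentile of all values (185.8) were raised to it before log2. Probe sets above this floor on at least 7 arrays, without 59 control probe sets, were tested (7503). The number of arrays limits the precision.

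R 4.3.3 with limma 3.58.1 fitted 1 model of 6 group means over all 47 arrays (moderated, two-sided tests with an intensity trend), and each of the 9 comparisons was adjusted by Benjamini-Hochberg over the 7503 probe sets, with 0.05 as the limit. Python 3.11.15, pandas 2.3.3 and matplotlib 3.10.9 read promoter windows and drew figures. The fit was tested on simulated data.

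Probe sets were named through the platform annotation, which gave 1 gene for 7018 probe sets, several for 308 and none for 1473. The rule for named genes was that every probe set with a single member symbol is named; pathway and marker genes are named where their 1 probe set (the highest mean signal) passed the test. Probe sets ending in _s_at or _g_at can read more than 1 related transcript, so their values are uncertain as to transcript. Members, lists and tests were chosen with earlier results of these data known. Sample numbers occur once each, so no block was used. Alternatives were another log offset, a lower floor, no filter, quantile normalization, no intensity trend, only the compared groups, each array's 10th percentile as covariate, and each array left out in turn.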

Additional observations from a re-analysis of the deposited data

Results flagged for a closer look

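Among 117 sets of values of 1 probe set in 1 group, 8 held an array whose gap to the nearest other array, as a share of the group's range, was above Dixon's 95% critical value; chance gives about 1 in 20. For Jun rc_AI175959_at these were array 45, the lowest of contralateral cortex at 24 h (0.543), and array 31, the highest of contralateral hippocampus (0.566). For Crem S66024_at they were array 43, the lowest of contralateral cortex at 24 h (0.595), and array 28, the highest of contralateral hippocampus (0.615), and for Crem U04835_at array 17, the lowest of ipsilateral hippocampus (0.586). For Myc Y00396mRNA_at, array 42 in contralateral cortex at 24 h and array 11 in contralateral cortex at 4 h were alone above the floor (a share of 1 each). Where 1 array is alone above the floor the share is always 1, so the 1 in 20 does not apply to such sets. For Dusp6 U42627_at it was array 20, the highest of ipsilateral hippocampus (0.58). Without array 31 the Jun side difference in hippocampus stayed called, and without array 28 the Crem one did. Crem S66024_at differed between the regions in its ipsilateral minus contralateral difference, by 1.49 (limma adjusted p = 0.00606), with opposite signs in hippocampus (0.85) and cortex at 4 h (-0.64).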

How the results depend on the processing

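No member difference that was called reversed its sign under any alternative. No paired analysis was possible because sample numbers occur once each and carry no pairing between groups. The 5 hippocampal side calls became 3 with the floor at the 10th percentile (a signal of 53.1), 2 without the filter on dim probe sets, 2 with the compared groups alone and 0 with each array's 10th percentile as covariate. The 5 calls with time in ipsilateral cortex became 3 with the lower floor and 3 with the compared groups alone, and the 13 ipsilateral region calls became 8 with the covariate. The 1 call on the difference between the side contrasts became 2 under quantile normalization and 0 with the covariate. The cause was not tested, except that fewer arrays or more probe sets enter where the setting says so. Leaving out 1 array at a time gave 2 to 5 calls for the hippocampal side, 0 to 0 and 0 to 1 for the cortical side at 24 h and 4 h, 3 to 6 and 2 to 5 with time in ipsilateral and contralateral cortex, 8 to 13 and 7 to 9 for the ipsilateral and contralateral region, 0 to 0 for the cortical side difference at 24 h minus that at 4 h and 1 to 2 for the difference between the side contrasts. The hippocampal count of 2 came without array 21, 24 or 25, and the ipsilateral region count of 8 without array 3.

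Over all tested probe sets, the 1207 hippocampal side calls fell to 5 with the covariate, and ran between 799 and 1446 with 1 array left out. The 314 calls on the difference between side contrasts became 64 with the compared groups alone and 1 with the covariate, and 135 to 508 with 1 array left out, and their share of higher calls was 36.7% under quantile normalization, against 25.8%. The 8 cortical side calls at 24 h became 0 without the filter, without the intensity trend and with the compared groups alone, 13 with the covariate and 0 to 26 with 1 array left out; the 0 at 4 h became at most 5. The cortical side difference at 24 h minus that at 4 h had 1 call with the lower floor. Of 180 member differences, quantile normalization ended 6 calls and added 3, and the covariate ended 13 and added 3. Signals at the floor limit Crem S66024_at, Crem Z15158mRNA_at and Myc Y00396mRNA_at.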
